A study of Mus musculus with 4 samples.

Results

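The antioxidant enzymes described here are 10 genes chosen by name: Sod1, Sod2 and Sod3, Cat, Gpx1 and Gpx4, Prdx1 and Prdx6, Txnrd1 and Hmox1. All 10 were found, by their Entrez identifiers, among the 12700 genes of a table of read counts from mouse brain. The table compares Ids-ko with wild type (wt) littermates, C57BL/6 mice aged 9 months. Ids-ko mice lack a working copy of Ids, the X-linked gene of the lysosomal enzyme iduronate 2-sulfatase, and serve as a model of mucopolysaccharidosis type II (Hunter syndrome). RNA came from Cx, the cerebral cortex, and from M, an area that joins midbrain, diencephalon and hippocampus, both taken from each brain. The total RNA of several mice was pooled for each of the conditions CxH (Ids-ko, Cx), CxWT (wt, Cx), MH (Ids-ko, M) and MWT (wt, M), and each pool was sequenced as 1 library on a SOLiD 3 Plus instrument. No value therefore has a replicate, and every error given below covers counting alone.

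Superoxide, a by-product of respiration and of some oxidases, is turned into hydrogen peroxide by the superoxide dismutases. Catalase, the glutathione peroxidases and the peroxiredoxins then remove the peroxide, most of the last with electrons that thioredoxin reductase hands on through thioredoxin. Heme oxygenase, which breaks down free heme, is counted with them because it is switched on, like several of them, by the stress-sensing transcription factor NRF2. Brain tissue uses much oxygen and is rich in lipids that peroxides attack, so these enzymes have been studied widely in diseases of neurons and lysosomes.

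Before these genes are compared, 2 observations on the libraries have to be given, because they go against the labels. Ids had 135 reads per 1000000 aligned reads (RPM) in the library labelled CxH and 354 in the one labelled CxWT, but 368 in the library labelled MH and 155 in the one labelled MWT. Of the M pair, the library labelled Ids-ko thus holds more Ids reads than the one labelled wt. Markers of cortical excitatory neurons, of which 12 of 12 are in the table, summed to 1833 RPM in CxH and 1692 in MH, against 255 in CxWT and 189 in MWT. Markers of midbrain and diencephalon, 15 of 18 in the table, summed to 521 RPM in CxWT and 454 in MWT, and to 27.3 in CxH and 38.8 in MH, where 1 of them, En1, was at 0. By these marker levels CxWT resembles MWT although it is labelled Cx, and MH resembles CxH although it is labelled M. Each comparison of genotype as labelled therefore also sets cortical marker levels against midbrain marker levels, and genotype and area cannot be told apart in it. All 6 pairs of libraries are given side by side for this reason, 4 of them compared in the study and 2 added here, and CxH, CxWT, MH and MWT always mean the library labelled so. The libraries held between 16380080 (MWT) and 23475080 (CxH) reads on genes.

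The promoters of Prdx1, Txnrd1 and Sod1 are shown because these 3 genes, like Sod2 and Prdx6, were highest in MWT and lowest in MH, and because each holds a match to the antioxidant response element that NRF2 binds, spelled TGACNNNGC and searched on both strands. Each sequence is the 250 bases before a RefSeq gene start on GRCm38.p6, read on the + strand, which is the strand of the gene, and capitals mark the match, which lies on the opposite strand in all 3. The windows are chr4:116685349-116685598 for Prdx1, chr10:82858956-82859205 for Txnrd1 and chr16:90220512-90220761 for Sod1.
Prdx1: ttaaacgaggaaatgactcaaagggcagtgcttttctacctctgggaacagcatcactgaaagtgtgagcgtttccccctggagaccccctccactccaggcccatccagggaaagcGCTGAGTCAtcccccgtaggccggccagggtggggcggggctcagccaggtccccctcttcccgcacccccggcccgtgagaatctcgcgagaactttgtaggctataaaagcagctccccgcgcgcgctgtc
Txnrd1: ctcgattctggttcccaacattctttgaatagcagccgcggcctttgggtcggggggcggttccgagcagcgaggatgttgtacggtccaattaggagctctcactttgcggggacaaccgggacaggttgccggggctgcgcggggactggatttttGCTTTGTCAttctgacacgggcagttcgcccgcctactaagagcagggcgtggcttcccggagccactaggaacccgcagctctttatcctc
Sod1: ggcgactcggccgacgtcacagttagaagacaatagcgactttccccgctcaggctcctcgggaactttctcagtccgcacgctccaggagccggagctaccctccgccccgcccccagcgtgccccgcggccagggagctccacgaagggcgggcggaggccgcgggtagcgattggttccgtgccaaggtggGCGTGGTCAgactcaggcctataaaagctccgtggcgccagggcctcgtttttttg
The match lies 133 to 125 bases before the start in Prdx1, 92 to 84 in Txnrd1 and 56 to 48 in Sod1. Promoter entries were given for 7 of the 10 genes, with 12 promoters in all, and these 3 promoters were the ones with a match. Of all 32851 mouse promoters of the same length, 10.2% hold one. A GC box, spelled GGGCGG, was found in 8 of the 12 promoters and in 32.7% of all, and a CCAAT box in 7 of the 12 and in 33.8% of all. These are matches of letters, and binding was not measured. Sod3, Hmox1 and Prdx6 were without an entry.

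Levels were compared between genes only per kilobase of the longest protein-coding transcript. On that scale, averaged over the 4 libraries, Sod1 stood highest at 154 RPM per kilobase, followed by Gpx4 at 94.8 and Prdx6 at 71.7. In the middle were Prdx1 at 38.7, Gpx1 at 27.4, Sod2 at 22.8 and Cat at 20.4 RPM per kilobase. Txnrd1 at 9.30, Hmox1 at 6.54 and Sod3 at 4.17 RPM per kilobase were the lowest. The most abundant of the 10 were thus a dismutase, a glutathione peroxidase and a peroxiredoxin, and the secreted dismutase was the rarest. The positions in the order of Sod1 and Gpx4 rest in part on how reads of near-identical copies were assigned: 94.7% of the Sod1 transcript and 73.7% of the Gpx4 transcript have a copy elsewhere in the genome at 96% identity or more over at least 50 bases, and for Sod2 the share is 36.8%. For Hmox1, Prdx1 and Sod3 it is 5.29% or less, and for the other 4 genes none was found. The deposited counts hold reads aligned to a single gene, so values of Sod1, Sod2 and Gpx4 are uncertain in this respect.

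**Figure D1:**
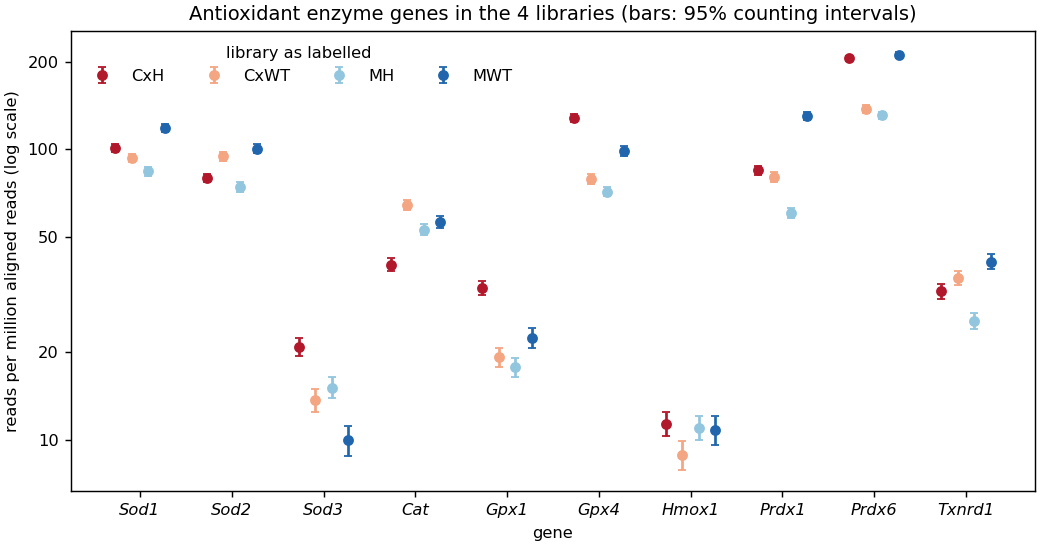
Levels of the 10 antioxidant enzyme genes, in RPM on a log scale, in the libraries labelled CxH, CxWT, MH and MWT, with bars for the 95% exact Clopper-Pearson counting interval. MH lies lowest for 7 of the 10 genes, while the lowest value of Sod3 is in MWT, that of Cat in CxH and that of Hmox1 in CxWT (on TMM and DESeq2 scaling Prdx6 is lowest in CxWT).

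For a call, with the test and the thresholds of the study applied to RPM, the reads of a gene in 2 libraries had to differ at a p-value below 0.05 in a Poisson likelihood ratio test, and its RPM by a log2 ratio of 0.7 or more in size, a fold of 1.625. Such a test compares 2 libraries and not 2 conditions. In bulk tissue, fewer cells of a type and less RNA per cell cannot be told apart.

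In Cx as labelled, Gpx1 was the 1 antioxidant enzyme gene called higher in CxH than in CxWT, out of 10, and 0 were called lower. Over all genes, 9.46% were called higher and 11.5% lower, so 1 of 10 is near the background. In M as labelled, Prdx1 was the 1 gene called lower in MH than in MWT and 0 were called higher, where the background was 12.3% higher and 12.7% lower. The median log2 ratio of the 10 genes was 0.24 in Cx, against -0.093 over all genes, and -0.45 in M, against -0.066 over all genes. In Cx 7 of the 10 ratios were above 0, against 42.5% of all genes. In M 8 were below 0 and 2 above, where 45.5% of all genes were above 0. A ratio above 0 in Cx and below 0 in M was found for 5 of the genes, Sod1, Gpx1, Gpx4, Prdx1 and Prdx6, and for 11.5% of the 11010 genes that reach 100 reads throughout, although correcting jointly for transcript GC content and length (called the GC and length correction below) moved Sod1 in Cx to -0.073 and so out of that group, and Sod2 to 0.043 and into it.

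**Figure D2:**
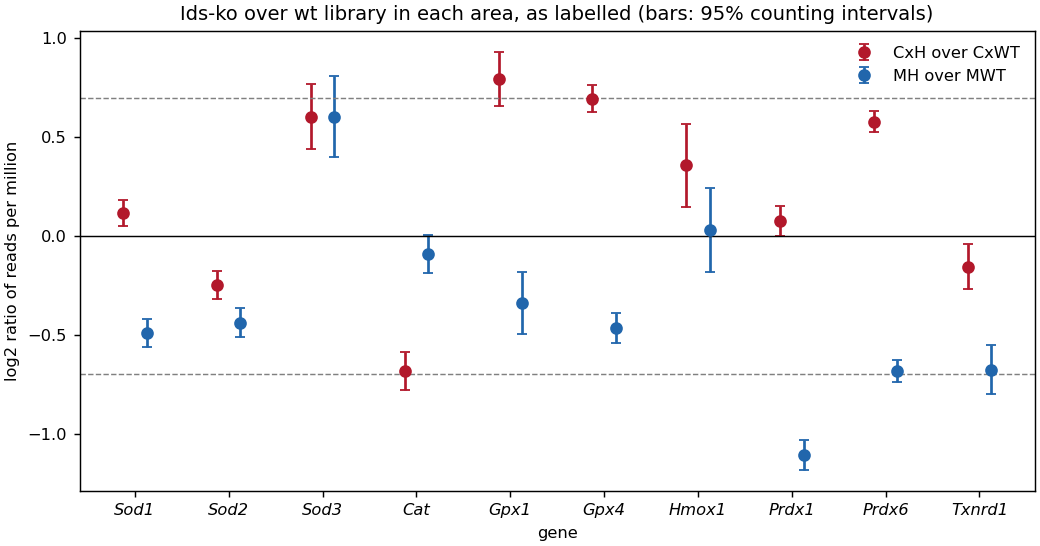
The log2 ratio of RPM for each gene, CxH over CxWT in red and MH over MWT in blue, with bars for 95% counting intervals and dashed lines at the size of 0.7 that a call needs. Gpx1 in Cx and Prdx1 in M lie past the dashed lines, several others lie just inside them, and 4 signs are not stable: a GC and length correction turns Sod1 and Sod2 in Cx and Cat in M, and scaling by column totals turns Hmox1 in M.

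Sod1 (Entrez 20655, chr16:90220987-90226567 on mm9, as are all gene positions below), the copper and zinc enzyme of the cytosol, had 101 RPM (CxH), 93.3 (CxWT), 84.1 (MH) and 118 (MWT). These 4 values lie within a fold of 1.41, and their counting intervals do not overlap. In Cx the log2 ratio was 0.12 ± 0.035 (counting standard error), of the opposite sign after the GC and length correction given above, and -0.49 ± 0.036 in M. Sod2 (Entrez 20656, chr17:13200705-13210985), the manganese enzyme of mitochondria, had 79.6 RPM (CxH), 94.5 (CxWT), 74.1 (MH) and 100.3 (MWT). Its level was lower in both libraries labelled Ids-ko than in both labelled wt, with -0.25 ± 0.037 in Cx and -0.44 ± 0.038 in M on the log2 scale, neither of a size to be called, and the Cx ratio became 0.043 with the GC and length correction. Sod3, the secreted enzyme that binds heparan sulfate of the cell surface and matrix, ran the other way, with 20.8 RPM (CxH), 13.7 (CxWT), 15.1 (MH) and 9.95 (MWT). CxH was highest and MWT lowest, and the values of MH and CxWT in between did not differ beyond their counting intervals. In Cx its log2 ratio was 0.60 ± 0.084 and in M 0.60 ± 0.104, the 2 being alike within counting error and both under the size for a call. Sod3 (Entrez 20657), at chr5:52755185-52762644 on mm9, was called in 1 pair alone, CxH over MWT, at 1.07 ± 0.099.

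Cat (Entrez 12359, chr2:103294006-103325317), the heme enzyme of peroxisomes that splits hydrogen peroxide, had 40.1 RPM (CxH), 64.3 (CxWT), 52.9 (MH) and 56.3 (MWT). It was the only one of the 10 that was lowest in CxH and highest in CxWT, and MH and MWT did not differ beyond their counting intervals. The log2 ratio in Cx, -0.68 ± 0.048, came close to the size for a call. In M it was -0.091 ± 0.048, with a 95% interval from -0.185 to 0.004, and 0.056 after the GC and length correction.

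Gpx1, the selenoenzyme of cytosol and mitochondria that reduces soluble peroxides, had 33.3 RPM (CxH), 19.2 (CxWT), 17.8 (MH) and 22.5 (MWT). CxH stood apart at the top, and CxWT and MH did not differ beyond their counting intervals. Gpx1 (Entrez 14775), at chr9:108241607-108242671 on mm9, was called higher in CxH than in CxWT at a log2 ratio of 0.79 ± 0.070, and fell under the size for a call, to 0.56, with the GC and length correction. Its ratio in M was -0.34 ± 0.080. Gpx4, the selenoenzyme that reduces lipid peroxides within membranes and protects cells from ferroptosis, had 128 RPM (CxH), 79.2 (CxWT), 71.4 (MH) and 98.7 (MWT). The order of the 4 libraries was CxH, MWT, CxWT, MH, the same as for Gpx1. Gpx4 (Entrez 625249), at chr10:79509911-79519184 on mm9, lay just short of a call in Cx at 0.69 ± 0.035, was called there on TMM scaling at 0.79, and was at 0.37 with the GC and length correction. In M its ratio was -0.47 ± 0.039, and the GC and length correction took it to -0.76, which was called.

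Beside the 2 glutathione peroxidases the levels of other cell types also moved. The 15 microglia markers, all in the table and none at 0, summed to 896 RPM (CxH), 478 (CxWT), 556 (MH) and 728 (MWT), so their sum too was highest in CxH, with MWT next, although 4 of the 15 (Tmem119, Csf1r, P2ry12 and Cx3cr1) were higher in MH than in MWT. The 8 choroid plexus markers summed to 585, 146, 638 and 269 RPM in the same order of libraries (Ttr alone gave 537 of the RPM in CxH and 583 in MH, and Otx2 was called lower in both Cx and M, at -1.97 and -1.57), the 11 astrocyte markers to 4316, 3418, 3524 and 4149 (5 of the 11 were higher in CxH than in CxWT, with 2 called higher and 2 lower), and the 10 endothelial markers to 341, 279, 280.5 and 282. The 10 oligodendrocyte markers were lower in CxH and MH, at 5062 and 5272 RPM, than in CxWT and MWT, at 9593 and 7744. Of the red cell markers 2 of 6 are in the table, with 125, 254, 185.5 and 77.1 RPM. Their part in the levels of the antioxidant enzyme genes was not tested.

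Prdx1, a cytosolic peroxiredoxin that thioredoxin recycles, had 84.6 RPM (CxH), 80.25 (CxWT), 60.25 (MH) and 129.8 (MWT). It varied most of all 10 genes, by 2.15-fold from MH to MWT, while CxH and CxWT lay close together in between; on TMM and DESeq2 scaling Sod3 varied more, and with the GC and length correction Sod3, Gpx4 and Prdx6 did. Prdx1 (Entrez 18477), at chr4:116358149-116373427 on mm9, was called lower in MH than in MWT at a log2 ratio of -1.11 ± 0.039, and with the GC and length correction the ratio was -0.65 and no longer called. In Cx it was 0.076 ± 0.038, and 0.17 on TMM scaling and 0.43 with the GC and length correction, neither called. Prdx6 (Entrez 11758, chr1:163170243-163181350), a peroxiredoxin that uses glutathione and also has phospholipase activity, had 205 RPM (CxH), 138 (CxWT), 131 (MH) and 210.3 (MWT). Its levels formed 2 pairs, CxH with MWT above and CxWT with MH below. CxH and MWT did not differ beyond their counting intervals, and MH lay below CxWT at -0.071 ± 0.030 on the log2 scale, or above it at 0.037 on TMM scaling. Its ratio, on the log2 scale, was 0.58 ± 0.027 in Cx and -0.68 ± 0.028 in M, and the GC and length correction brought the Cx ratio to 0.70, past the size for a call. Txnrd1 (Entrez 50493, chr10:82296696-82360469), the selenoenzyme that keeps cytosolic thioredoxin reduced, had 32.4 RPM (CxH), 36.1 (CxWT), 25.7 (MH) and 41.0 (MWT). Both libraries labelled Ids-ko were lower than both labelled wt, with -0.15 ± 0.058 in Cx and -0.68 ± 0.063 in M on the log2 scale, neither called.

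Hmox1 (Entrez 15368, chr8:77617490-77624495), the stress-induced enzyme that splits heme into biliverdin, carbon monoxide and iron, had 11.4 RPM (CxH), 8.86 (CxWT), 11.0 (MH) and 10.8 (MWT). It varied by 1.28-fold, the least of the 10 on this scaling, though not on TMM or DESeq2 scaling, where Sod2 varied least, nor with the GC and length correction, where Sod1 did, and CxH, MH and MWT followed each other within their counting intervals, with CxWT below MWT by a log2 ratio of -0.28 ± 0.117. In Cx the log2 ratio was 0.36 ± 0.108 and in M 0.029 ± 0.108, the latter turning to -0.032 on column totals.

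The libraries of the pair CxH and MH are labelled as different areas but both had high sums of cortical markers, and Ids was lower in CxH, by 2.72-fold. In the same way CxWT and MWT both had high sums of midbrain and diencephalon markers, and Ids was lower in MWT, by 2.28-fold. Whether labels were exchanged was not tested. Set as CxH over MH, 2 of the 10 genes were called higher, Gpx1 at 0.91 ± 0.069 and Gpx4 at 0.84 ± 0.035, and 0 lower. Here the background was smaller, with 2.43% of all genes called higher and 1.06% lower. The share of the 10 genes is above it, but rests on 2 genes that the GC and length correction moved to 0.63 and 0.53, under the size for a call, while it moved Prdx6 from 0.65 to 0.71, which was called. The median of the 10 was 0.40, against 0.015 over all genes, and 9 of the 10 were higher in CxH, against 51.9% of all genes. The exception was Cat at -0.40 ± 0.049 (Hmox1, at 0.045, was lower on column totals and with the GC and length correction).

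For CxWT over MWT none was called, that is 0 higher and 0 lower, where the background was 5.43% and 2.11%. Prdx1, at -0.69 ± 0.036, was just short and was called on TMM scaling at -0.74, but was at -0.39 with the GC and length correction. Prdx6 was next at -0.61 ± 0.028, or -0.45 with the GC and length correction. Sod3 at 0.46 ± 0.108 and Cat at 0.19 ± 0.047 were the 2 of the 10 genes with a ratio above 0, where 55.3% of all genes had one. Sod2 went from -0.085 to 0.099 with the GC and length correction. The median was -0.25, against 0.045 over all genes.

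The added pairs compare libraries that differ in both labels. Between CxH and MWT, the libraries with fewer Ids reads, 1 gene was called higher, Sod3, and 0 lower, where 15.6% of all genes were called higher and 15.1% lower. Prdx1 at -0.62 ± 0.035 and Gpx1 at 0.57 ± 0.070 followed, and Prdx6 at -0.034 ± 0.025 differed least and was at 0.0099 on TMM scaling. With the GC and length correction Prdx1 came to 0.041, Sod2 went from -0.33 to 0.14, Prdx6 to 0.24 and Gpx4 from 0.38 to -0.23. Between MH and CxWT, the libraries with more Ids reads, 0 were called higher and 0 lower, against 6.41% and 8.89% of all genes. The 10 ratios lay between -0.49 for Txnrd1 and 0.31 for Hmox1. The medians of the 10 were -0.13 and -0.15 in these pairs, where all genes had -0.040 and -0.11, and the last shift, above 0.1 in size, was -0.0036 on TMM scaling.

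**Figure D3:**
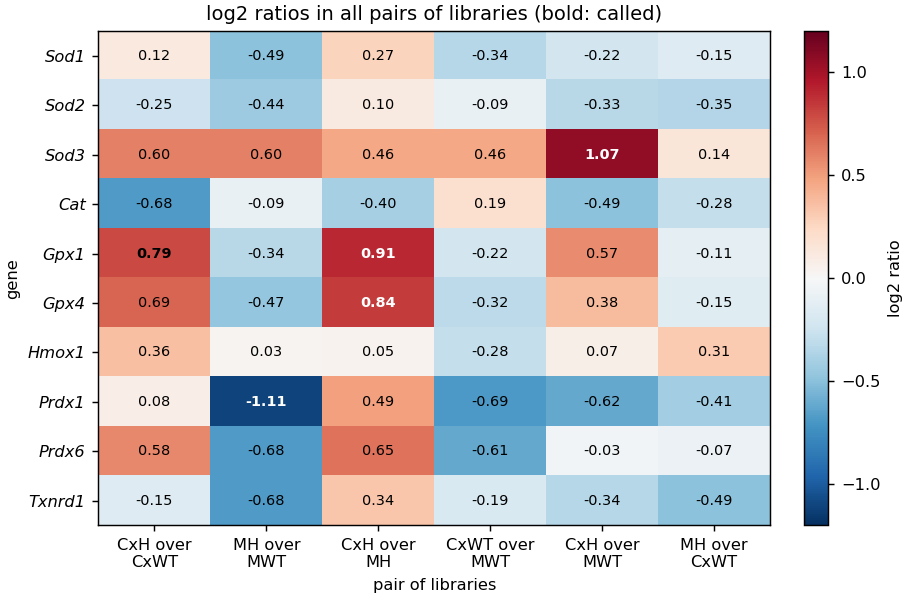
The log2 ratio of RPM of each gene (rows) in each of the 6 pairs of libraries (columns), red where the first library is higher and blue where it is lower, with called ratios in bold. The 5 called ratios are Gpx1 in CxH over CxWT and over MH, Gpx4 in CxH over MH, Sod3 in CxH over MWT and Prdx1 in MH over MWT. Ratios near 0, such as those of Prdx6 in the last 2 columns and of Hmox1 in MH over MWT, CxH over MH and CxH over MWT, change sign with the scaling.

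Across the 4 libraries MH was lowest for 7 of the 10 genes, namely Sod1, Sod2, Gpx1, Gpx4, Prdx1, Prdx6 and Txnrd1, whereas it was lowest for 23.1% of the 11010 genes that reach 100 reads throughout (on TMM and DESeq2 scaling Prdx6 was lowest in CxWT). The highest value of 9 of the 10 was in CxH or MWT, as for 60.2% of those genes (with the GC and length correction Hmox1 was highest in MH). Sod1, Sod2, Prdx1, Prdx6 and Txnrd1 were highest in MWT, Sod3, Gpx1, Gpx4 and Hmox1 in CxH, and Cat in CxWT. Of these places, the ratio of CxH over MWT changed sign with the GC and length correction for Sod2, Prdx1, Prdx6, Gpx4 and Hmox1, on TMM and DESeq2 scaling for Prdx6, and on column totals for Hmox1, which was then highest in MWT. Among the 10 themselves, Gpx1 and Gpx4 had the most similar pattern, with a root mean square difference of 0.069 between their log2 RPM centred over the 4 libraries, and Sod3 and Prdx1 the least, at 0.69.

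Genes with the most similar pattern were looked up for Prdx1, Sod3 and Gpx1, the 3 genes that varied most without the GC and length correction, among the 6410 genes that reach 500 reads throughout. For Prdx1 these were Serp1, Rpl7, Mmadhc, Ndufc2 and Higd1a, with differences of 0.053 to 0.067. Sod3 was followed most closely by Ppp1r16a at 0.012 and Cenpb at 0.023, then by Nrxn2, Lasp1 and Tmem151a. Nearest to Gpx1 were Itgb5 at 0.033, Rplp0 at 0.045, Lars2, Gpx4 and Mt3. With 4 points per gene, such likeness is a description only.

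GC content moved with the ratios. Across 10725 genes the Spearman correlation of GC content with the log2 ratio was 0.46 for Cx and 0.49 for M, 0.58 for CxH over MH, 0.63 for CxWT over MWT, 0.69 for CxH over MWT and 0.16 for MH over CxWT. These correlations are across genes, which share their libraries. Prdx1, with the lowest GC content of the 10 at 42.3%, had the lowest ratio in M. Gpx4, with the highest at 60.2%, was among the highest ratios in Cx at 0.69 and was at -0.47 in M. Once GC content and length were corrected for, it was at 0.37 in Cx and -0.76 in M. GC content and transcript length were corrected for jointly, so the part of GC content alone in the ratios was not tested.

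**Figure D4:**
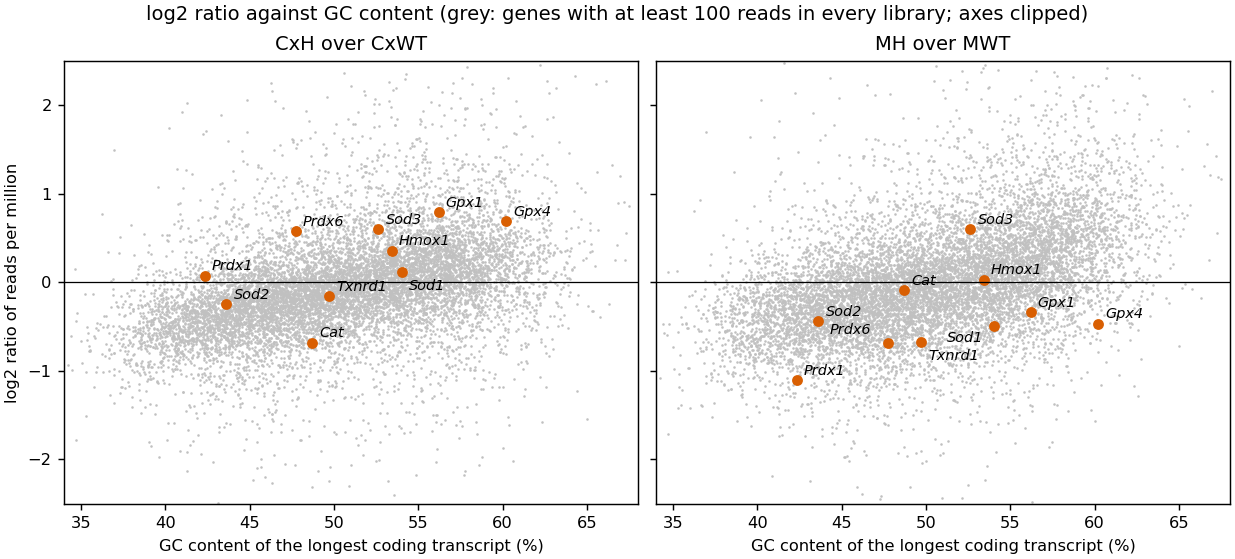
The log2 ratio of RPM against the GC content of the longest protein-coding transcript, in percent, for CxH over CxWT and MH over MWT, with grey points for genes that reach 100 reads throughout and orange points for the 10 antioxidant enzyme genes. The grey cloud climbs with GC content in both panels. Prdx1 at 42.3% GC is lowest of the 10 in M, and Gpx4 at 60.2% lies at 0.69 in Cx and -0.47 in M.

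The wider pathways around these enzymes were described by 9 gene lists, some of which hold several of the 10, and are read against the same shares of all genes as above, 9.46% called higher and 11.5% lower in Cx and 12.3% and 12.7% in M. Of 16 genes of glutathione synthesis and use, 1 was called higher in Cx, Gpx1, and 2 lower, Gpx3 and Glrx, with a list median of -0.090. In M 0 were called higher and 3 lower, Gpx3, Glrx5 and Glrx, at a median of -0.25. At a log2 threshold of 1 the call of Gpx3 was left in each comparison. Gpx3, the secreted glutathione peroxidase, had 16.1 RPM (CxH), 65.9 (CxWT), 8.38 (MH) and 67.6 (MWT), so its 2 lowest values were in the libraries with high cortical markers. The ratio of -2.03 ± 0.066 in Cx and of -3.01 ± 0.088 in M (log2) was larger in size than that of any of the 10. Of the glutaredoxins, which use glutathione to reduce protein disulfides, Glrx had -0.94 ± 0.073 in Cx and Glrx5 -0.996 ± 0.085 in M.

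Of 15 glutathione transferases, which attach glutathione to electrophiles, 0 were called higher and 5 lower in both comparisons, with medians of -0.24 in Cx and -0.57 in M, against 11.5% and 12.7% of all genes called lower. The 5 calls in Cx fell to 3 with the exact test and to 1 at a log2 threshold of 1. Mgst1, a transferase of membranes, had 9.61 RPM (CxH), 19.0 (CxWT), 6.32 (MH) and 24.6 (MWT), at log2 ratios of -0.98 ± 0.094 and -1.96 ± 0.108. Gstm6 had -1.29 ± 0.152 and -1.26 ± 0.148, though genes of this family are alike in sequence and reads may have been split between them. The others called were Gstm7, Gstt2 and Gstt3 in Cx and Gstk1, Gstm7 and Gstt3 in M, named after their values were seen.

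Of 19 genes of the thioredoxin and peroxiredoxin system, 1 was called higher in Cx, Msra, a methionine sulfoxide reductase, at 0.81 ± 0.094, and 1 lower, Txnrd3 at -0.72. In M 0 were called higher and 4 lower. These were Prdx1 and the peroxiredoxins Prdx3 of mitochondria, at -0.90 ± 0.049, and Prdx4 of the secretory pathway, at -1.77 ± 0.155, with thioredoxin itself, Txn1, at -0.86 ± 0.088, of which Txnrd3, Prdx3 and Txn1 were named after their values were seen. With the GC and length correction 4 genes of this list were called in Cx in place of 2, and 1 in M in place of 4. At a log2 threshold of 1 the list had 0 calls in Cx and 2 in M, and with the exact test 0 in Cx. The list medians were -0.058 in Cx and -0.13 in M. Prdx4 had 4.42 RPM (CxH), 6.22 (CxWT), 3.21 (MH) and 10.9 (MWT), lowest in MH and highest in MWT as Prdx1 was, while in Cx Prdx4 was at -0.49 ± 0.149. The largest positive ratios in Cx after Msra were those of Prdx5, at 0.63 ± 0.051, and Prdx6.

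None of the 7 genes of dismutases and copper supply was called in either comparison, 0 higher and 0 lower, nor any of the 5 genes of heme breakdown, and the medians were 0.12 and -0.27 for the first list and -0.065 and -0.14 for the second, in Cx and M. Atp7a, a copper pump, was at -0.57 ± 0.101 in Cx and the copper importer Slc31a1 at -0.53 ± 0.078 in M. Hmox2, the constitutive heme oxygenase, was at -0.40 ± 0.056 in M, and the biliverdin reductases Blvra and Blvrb were at -0.59 ± 0.112 in M and 0.42 ± 0.143 in Cx. Of 23 genes of NRF2 control and NRF2 targets, 1 was called higher in Cx, Osgin1, on 50 reads in CxH and 17 in CxWT, and 0 lower. In M 0 were called higher and 3 lower, Me1 at -1.07 ± 0.049, Nqo1 at -0.86 ± 0.193 and G6pdx at -0.79 ± 0.056, of which the first and last make NADPH, and these 3 calls fell to 1 with the exact test and at a log2 threshold of 1. The call of Osgin1 was lost with the filter at 100 reads. Osgin1 and Nqo1 were named after their values were seen. The medians of this list, -0.11 in Cx and -0.068 in M, were near those of all genes. In Cx the largest ratios of the list among genes with at least 100 reads were G6pdx at -0.56 ± 0.052 and Gclm, of glutathione synthesis, at -0.52 ± 0.077.

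Gpx1, Gpx4 and Txnrd1 are selenoproteins, and of 18 genes of selenoproteins and their synthesis 0 were called higher and 2 lower in Cx, Selenot and Sepsecs, both at -0.73, and both calls were lost on TMM and DESeq2 scaling, with the exact test that assumes variation between pools and at a log2 threshold of 1. In M 0 were called higher and 4 lower, or 2 with the GC and length correction and at a log2 threshold of 1. Selenop, which carries selenium to the brain, had 299 RPM (CxH), 451 (CxWT), 260.4 (MH) and 606 (MWT), a log2 ratio of -1.22 ± 0.018 in M, and Pstk, a kinase of selenocysteine synthesis, had -1.01 ± 0.109. The others called were Selenot and, named after its value was seen, Selenos. The list medians were -0.19 in Cx and -0.32 in M. Of 19 genes of peroxisome import and oxidases, the compartment of catalase, 0 were called higher in both comparisons, 3 lower in Cx and 4 lower in M, at medians of -0.16 and -0.20. The 3 calls in Cx fell to 1 on TMM and DESeq2 scaling, with the exact test, with the GC and length correction and at a log2 threshold of 1, and that threshold also took the 4 calls in M to 1. Pex2 was called lower in both, at -0.74 ± 0.093 and -0.91 ± 0.090, Pex13 in Cx at -0.75 ± 0.068 and Pex7 in M at -0.90 ± 0.101, all of them needed for peroxisome assembly or import. Dao in both and Paox in M, named after their values were seen, were the others.

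Sources of superoxide and nitric oxide were the list with the most genes called higher in Cx. Of 8 genes in the table, 4 were called higher in CxH than in CxWT and 1 lower, at a list median of 0.52, where 9.46% of all genes were called higher and 11.5% lower. The 5 calls fell to 3 with the exact test, with the GC and length correction and at a log2 threshold of 1. Cyba, the membrane subunit of the NADPH oxidase, had 6.57 RPM (CxH), 3.06 (CxWT), 3.16 (MH) and 3.94 (MWT), at a log2 ratio of 1.10 ± 0.169. The others were its partners Ncf1, at 0.84 ± 0.132, and Ncf4, at 1.11 ± 0.415 on 42 and 17 reads, and Nos3, the nitric oxide synthase of vessels, at 0.89 ± 0.114, and these 3 were named after their values were seen. In M 0 of the 8 were called higher and 2 lower, at a median of -0.14. These were Maoa, at -1.24 ± 0.077 in M and -1.06 ± 0.080 in Cx, and Maob, at -1.60 ± 0.052, which break down monoamines and release hydrogen peroxide. Cyba, Ncf1 and Ncf4 are genes of phagocytes, and the microglia markers given above were likewise highest in CxH, a coincidence whose part was not tested.

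**Figure D5:**
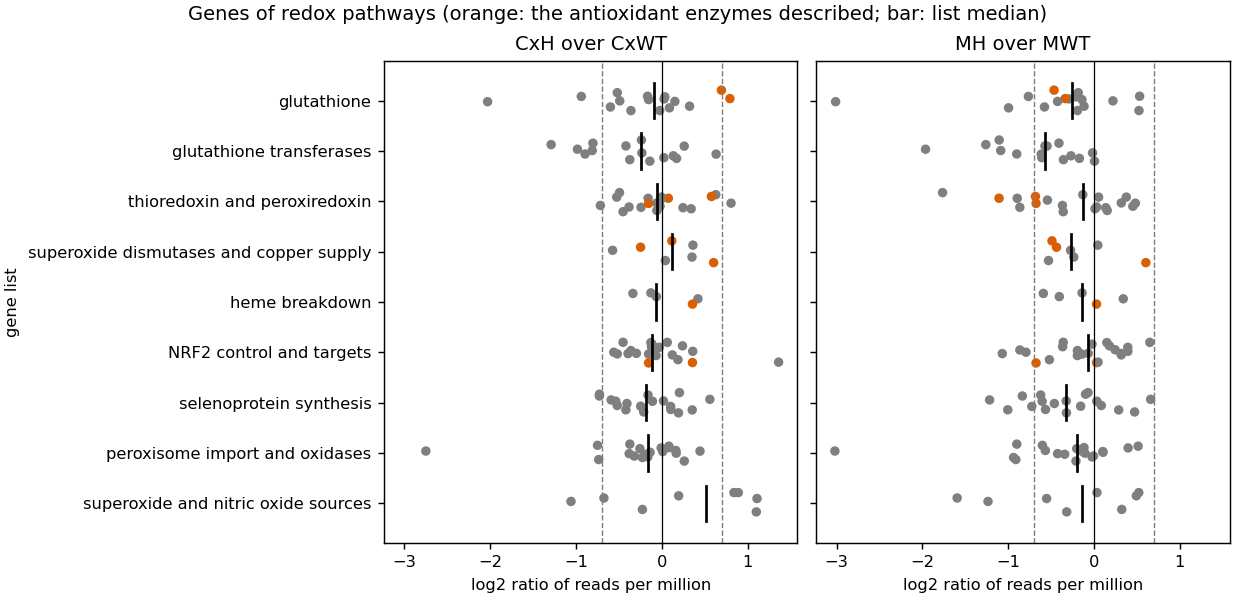
The log2 ratio of RPM of each gene (points) in 9 redox gene lists, CxH over CxWT at the left and MH over MWT at the right, with a black bar at the list median, dashed lines at the size of 0.7 and orange points for the 10 antioxidant enzyme genes. The median of superoxide and nitric oxide sources is 0.52 in Cx and that of glutathione transferases -0.57 in M, and the far point at the left of the glutathione list in both panels is Gpx3.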

How the data were processed

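RNA of 4 pooled samples was sequenced in 1 run. The authors removed low-quality reads, aligned the rest to NCBI37/mm9 with PASS, allowing at most 2 mismatches, and deposited counts of reads aligned to a single gene for 12700 genes covered over most of their length; the gene annotation and strand setting are not given in the sources used here. RPM are counts per 1000000 aligned reads, with the totals that the study gives. A count of 0 was set to 1 for ratios only. Every gene was tested, in 6 pairs of libraries, with a Poisson likelihood ratio test. At this depth 3 reads equal 0.0779 to 0.104 RPM. Intervals are exact Clopper-Pearson at 95%. Of 12690 genes with a symbol, 12444 matched GENCODE vM1, and 12252 had a coding transcript for GC content and length. Copies were searched with BLAST 2.17.0. Steps were tested on simulated data.

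The 10 genes and the gene lists were chosen with earlier results of these data known, so no list is independent evidence. From each list, the 2 genes with the largest ratio in size in CxH vs CxWT and the 2 in MH vs MWT, provided all libraries hold 100 reads of them or more, were named. Alternatives were 3 other scalings (column totals, TMM, DESeq2 size factors), a filter at 100 reads, a log2 threshold of 1, adjusted p-values, edgeR's exact test with an assumed variation of 0.2, 0.5 added to counts and a correction for GC content and length. Python 3.11.15, R 4.3.3, edgeR 4.0.16 and DESeq2 1.42.0 were used.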

Additional observations from a re-analysis of the deposited data

Results flagged for a closer look

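The log2 ratio of 5 of the 10 genes was above 0 in Cx as labelled and below 0 in M as labelled. The difference between the ratios, Cx minus M, was 1.26 for Prdx6 (counting standard error 0.039), 1.18 for Prdx1 (0.054), 1.16 for Gpx4 (0.052), 1.13 for Gpx1 (0.106) and 0.61 for Sod1 (0.050). These genes stand out because the sign of the ratio differs between the pairs CxH over CxWT and MH over MWT. With 1 library per condition the difference between these pairs was not tested. For Sod1 the GC and length correction gave -0.073 in Cx and -0.27 in M, the same sign in both. As given above, Ids goes against the labels in the M pair, and the area markers go against the label of CxWT in Cx and of MH in M.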

How the results depend on the processing

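No replicate could be left out, and no paired analysis was possible because each condition is 1 pooled library. Of the 9 alternatives, 4 change no ratio of the 10 genes by construction. Under the other 5, of 300 ratios 230 moved by less than their counting interval, 70 by more, and no called ratio changed sign. Of the counts called in the gene lists, 383 stayed within 1.5 times and 103 did not. In CxH vs CxWT, the number of the 10 genes called went from 1 to 2 (Gpx1 and Gpx4) with TMM and with DESeq2 size factors, and to 0 with a log2 threshold of 1 and with the exact test, and their median went from 0.24 to 0.33 with TMM and 0.32 with DESeq2 size factors. In MH vs MWT, column totals gave 3 called (Prdx1, Prdx6 and Txnrd1), and the GC and length correction a median of -0.29. That correction kept the number called at 1 but replaced the gene, Gpx1 by Prdx6 in CxH vs CxWT and Prdx1 by Gpx4 in MH vs MWT. In CxH vs MH, 0 were called with the log2 threshold of 1 and 1 (Prdx6) with the GC and length correction. In CxWT vs MWT, 2 (Prdx1 and Prdx6) were called with column totals and 1 (Prdx1) with TMM and with DESeq2 size factors, and column totals moved the median to -0.34. In CxH vs MWT, column totals gave 2 called (Sod3 and Prdx1) and a median of -0.24, and the GC and length correction a median of 0.0045. In MH vs CxWT the median was -0.041 with TMM and -0.040 with DESeq2 size factors. Genes called over the whole table, in the order of the pairs above, were 2658, 3170, 444, 958, 3895 and 1943, and with the log2 threshold of 1 they were 1401, 1642, 143, 295, 1961 and 1064. For CxH vs MH the exact test gave 191 and the GC and length correction 288, for CxWT vs MWT they gave 487 and 363, and for CxH vs MWT the GC and length correction gave 1904. The share of calls that were higher moved from 45.2% to 56.0% with TMM in CxH vs CxWT and from 41.9% to 54.2% in MH vs CxWT. With column totals it moved from 69.6% to 58.4% in CxH vs MH, from 72.0% to 55.2% in CxWT vs MWT and from 50.8% to 39.1% in CxH vs MWT, and with the GC and length correction from 72.0% to 53.2% in CxWT vs MWT. The cause was not tested.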
